A study of Mus musculus with 13 samples.

Results

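The comparison set the polyadenylated RNA of the nucleus against that of the cytoplasm in wild-type (WT) mouse oocytes. Genes whose deposited value reached 1 in either WT column were its members, and these were 14826 of the 23235 genes in the table (63.8%). Each library had been made with Smart-seq2, which primes cDNA on poly(A) tails and suits very small inputs, and each held 10 nuclei or 10 cytoplasms parted by micromanipulation. The labels list 5 libraries of WT nuclei (2 at day 14 and 3 at day 21) and 4 of WT cytoplasms (2 at day 14 and 2 at day 21). They also list 2 libraries each of nuclei and cytoplasms from MTR4-null oocytes, all at day 21. MTR4 is an RNA helicase that hands nuclear RNA to the exosome for decay. The deposited table holds 1 value per genotype and compartment, so the spread between libraries is unknown for every difference given here, and no p-value was computed. The WT columns name no day and may hold day 14 libraries, day 21 libraries or both. The sources used here give neither the mouse strain nor the allele behind the null genotype.

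In a growing oocyte, pre-mRNA is transcribed, spliced and polyadenylated in a large nucleus called the germinal vesicle and is then exported. The exported mRNA is stored in the cytoplasm as the maternal supply for meiosis and the early embryo. Some RNAs are known to stay in the nucleus, among them long noncoding RNAs such as Malat1, mRNAs with unspliced introns, and the small nucleolar RNAs that guide the modification of ribosomal RNA.

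A sequence found in many of the transcripts that were high in the nucleus was part of the B2 element. B2 is a short interspersed element, a mobile repeat that RNA polymerase III copies and that has landed in many mouse 3′ untranslated regions (UTRs). B1, the other abundant element of this kind in the mouse, descends from the RNA of the signal recognition particle. The 30 stretches of 24 bases that the transcripts of the members shared most often were collected by frequency alone, without regard to the WT difference, and they fell into 22 stretches of B1 and 8 of B2. The sites below are given as read on the mRNA, 5′ to 3′, with the shared 24 bases in capitals and 3 flanking bases on each side in lower case. The capitals are B2 in sense orientation in Loxl2 and Sap18 and B2 in antisense orientation in Nanog and Ppp1r16b, and the last line is the most frequent B1 stretch, in antisense orientation. The B1 stretch was in 176 transcripts and the B2 stretch of Loxl2 in 128.

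Loxl2: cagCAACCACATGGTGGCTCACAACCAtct

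Sap18: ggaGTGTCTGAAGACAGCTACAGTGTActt

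Nanog: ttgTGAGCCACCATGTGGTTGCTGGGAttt

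Ppp1r16b: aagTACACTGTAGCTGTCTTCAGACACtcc

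B1: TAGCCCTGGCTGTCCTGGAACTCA

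In the GRCm38 build these sites lie in 3′ UTRs by the GENCODE annotation, whereas the deposited values were made on mm9 per the submitters' processing notes. The Loxl2 site is at chr14:69695579-69695608 on the plus strand. The Sap18 site is at chr14:57803406-57803435 (plus), the Nanog site at chr6:122713720-122713749 (plus) and the Ppp1r16b site at chr2:158764880-158764909 (plus). The 30 bases shown for Loxl2 also stand, letter for letter, in the 3′ UTRs of Slfn5 (chr11:82963846-82963875, plus), Xaf1 (chr11:72312065-72312094, plus) and Churc1 (chr12:76783030-76783059, plus). They stand as well in Cxcr2 (chr1:74159951-74159980, plus), Irak1 (chrX:74015059-74015088, minus) and Pbld1 (chr10:63077425-63077454, plus). The sources used here do not give how reads matching many copies of a repeat were assigned, so the values of every gene holding such a stretch are uncertain.

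The 2 WT columns ranked genes alike, and few mRNAs were far apart between nucleus and cytoplasm. The deposited values are FPKM by the table's name, but the cytoplasmic column sums to 11.2 times the nuclear one. Each column was therefore divided by a factor (0.272 for the nucleus and 3.68 for the cytoplasm), the median over genes of the ratio to the geometric mean of both columns. Then 1 was added, and the log2 value of the cytoplasm was subtracted from that of the nucleus. The differences describe a gene against the median gene, they understate the difference of low genes, and they cannot show how much RNA each compartment held. Spearman's rho across the 14826 members was 0.892, over genes that share both columns and are not replicates. A total of 12300 members (83.0%) lay within 2-fold. By this measure 1631 members (11.0%) were higher in the nucleus by 2-fold or more, and 895 (6.04%) were higher in the cytoplasm. At least 4-fold apart were 623 on the nuclear side and 99 on the cytoplasmic side.

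**Figure D1:**
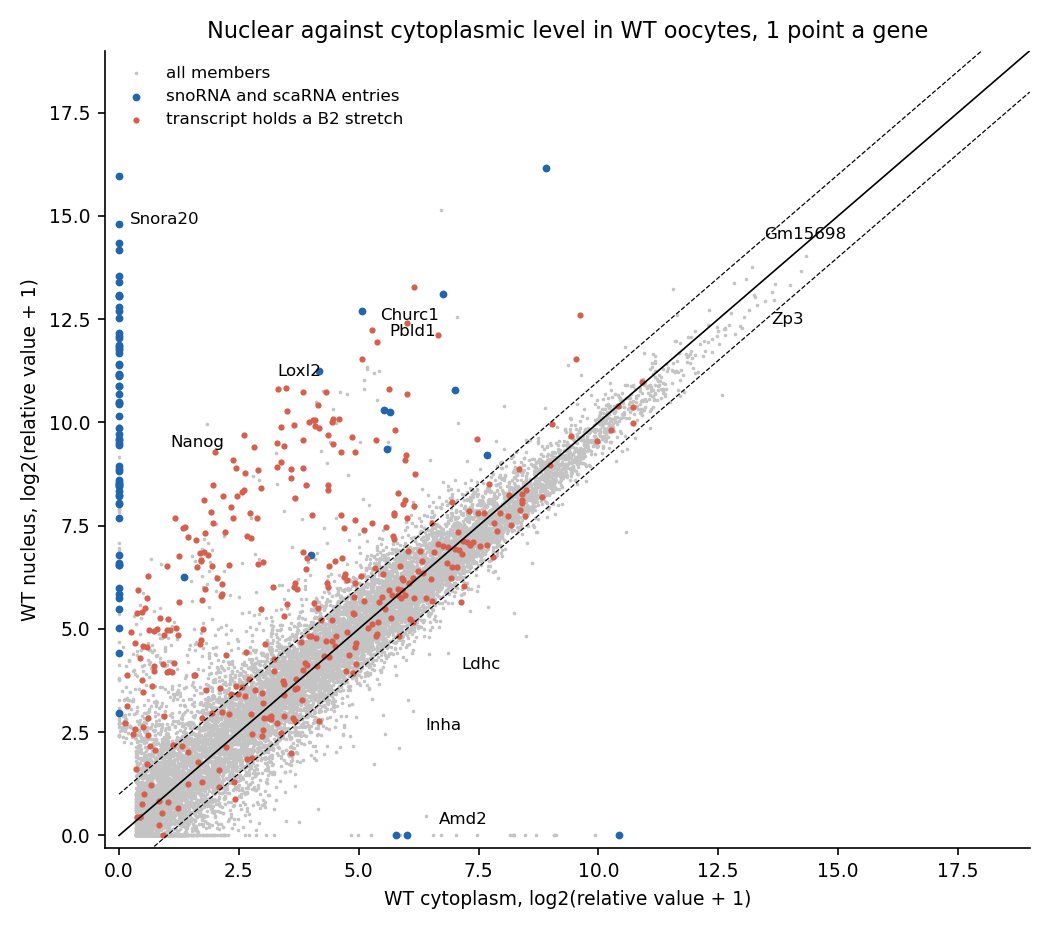
Relative level of each of the 14826 members in the WT cytoplasm (x axis) and the WT nucleus (y axis), both as log2(relative value + 1), with the line of equality and dashed lines at 2-fold. Most points lie within 2-fold, the snoRNA and scaRNA entries lie mostly above it, and 201 of the 363 genes with a B2 stretch are at least 2-fold higher in the nucleus.

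The balance of the calls depended on the scale. Of the called genes 64.6% were on the nuclear side, against 46.8% when each column was divided by its total and 47.6% after quantile normalization. Those scales moved the median of all members from -0.02 to -0.22 and to -0.17. The share was 54.7% with 0.1 added in place of 1 and 76.7% with 5. The split therefore says little on its own, and groups of genes are given below beside all members on the same scale. The share called higher in the nucleus also differed by mean log2 level. It was 0.92% of the 1737 members under 1, 19.4% of the 2002 members at 1 to 2 and 3.33% of the 1322 members above 8. Members under a level of 1 had a nuclear value under 1 and entered through the cytoplasm, so that share was nearly fixed in advance. Just inside the limit of 1 were Morc4 (0.0113 in the nucleus, 1.0 in the cytoplasm) and Myh7b (0.185 and 1.0). Just outside were Tmem179 (0 and 0.996) and Has2 (0.328 and 0.996).

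The columns carried oocyte RNA. All 14 oocyte markers were at 1 or more in both columns, between 25.6 and 3546 in the nucleus and between 431 and 70715 in the cytoplasm, and they made up 2.41% and 4.1% of the totals. Of 10 granulosa and cumulus cell markers, 3 reached 1 in the nucleus, where Amh and Amhr2 were listed at 0, and 9 reached 1 in the cytoplasm. Their summed share was 0.00291% and 0.00646%. Of 12 markers of blood, immune, vessel and stroma cells, 2 reached 1 in the nucleus and 4 in the cytoplasm, with summed shares of 0.00221% and 0.00295%. Hba-a1, Hbb-b1, Alas2, Ptprc, Lyz2 and Pdgfra were listed at 0 in the nucleus, and Hbb-b1, Lyz2 and Col3a1 in the cytoplasm. Pecam1 was the highest of these markers, with a nuclear value of 10.9 and a cytoplasmic value of 173. Both exceeded the column medians over members, 4.53 and 52.0. Inha led the granulosa and cumulus markers by cytoplasmic value, at 253 against a nuclear 1.92. Markers of other cell types were thus not all low.

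The most abundant mRNAs were the same in both compartments. The 10 protein-coding genes with the highest values were the same 10 genes in each column, and 81 of the top 100 were shared. Gm15698 led the mRNAs of both, at 4585 in the nucleus against 75762 in the cytoplasm (log2 difference -0.29). H1foo, the linker histone of the oocyte, had 3546 and 70715 (-0.56). Zp3, the zona pellucida protein that binds sperm, had 2125 and 42059 (-0.55), and Gdf9, a growth factor that the oocyte secretes to its follicle, had 2494 and 46246 (-0.46). Zbed3 was the exception in sign, with 3759 and 34759.8 (0.55). None of these 10 genes was 2-fold apart.

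The entries that differed most between the columns were those of small nucleolar and small Cajal body RNAs. These RNAs guide the chemical modification of ribosomal and spliceosomal RNA in the nucleus. Of 114 such entries, 79 were members. Among them, 76 were higher in the nucleus and 3 in the cytoplasm, while 65 were listed at 0 in the cytoplasm and 3 in the nucleus. Those 65 were members through the nucleus alone, so their nuclear side was set by the filter. Whether the reads at these entries came from the guide RNAs or from longer RNAs at those positions was not tested. The small nucleolar and Cajal body entries took 16.6% of the nuclear total and 0.145% of the cytoplasmic total. Snora47 stood at 19857 in the nucleus and 1753 in the cytoplasm. Snora20 had 7767 and Scarna2 5045 in the nucleus, and both were listed at 0 in the cytoplasm. Snord37 had 17324 in the nucleus and was listed at 0 in the other 3 columns of the table, so its level rests on 1 column. Snord57 went the other way, with 5046 in the cytoplasm and a listing of 0 in the nucleus. These RNAs are short and mostly have no poly(A) tail, and a value per length is high for a short gene from few reads, so the listings at 0 do not show that the RNA was absent.

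Entries named as microRNAs went both ways. Of 58 members, 28 were higher in the nucleus and 22 in the cytoplasm, with 23 listed at 0 in the cytoplasm and 16 in the nucleus. The 23 were members through the nucleus alone, so their nuclear side was also set by the filter. Mir1940 was at 9773 in the nucleus against 384 in the cytoplasm, whereas Mir762 had 2165 and 48073. Mir155 and Mir1956 had the same value to every digit in the cytoplasm (1975) and were both listed at 0 in the WT nucleus. In a poly(A) library such entries cover reads of longer RNAs at those positions and not the mature microRNA.

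Long noncoding RNAs, which include many RNAs that act on chromatin, had members on both sides. Of 782, 163 were higher in the nucleus (20.8%) and 59 in the cytoplasm (7.54%), against 9.59% and 5.79% of the 13585 protein-coding members. Their levels were lower, with a median cytoplasmic value of 11.1 against 59.3 for protein-coding genes among members with a transcript. The highest under the naming rule was A330069E16Rik, with a nuclear value of 2708, a cytoplasmic value of 259, a log2 difference of 7.12 and a move from place 3514 in the cytoplasmic ranking to place 16 in the nuclear one. BC024386 had 76.1 and 8.85 (6.37), 2500004C02Rik had 197 and 32.3 (6.21), and D330041H03Rik had 712 and 130 (6.17). All 6 of the long noncoding RNAs named on the nuclear side held a B1 or B2 stretch, 5 of them B2. The 6 named on the cytoplasmic side held neither, as did 648 of all 720 long noncoding members with a transcript. The cytoplasmic 6 were led by 4930455C13Rik, with 1.42 and 91.9 (-2.06), and Gm9999 had 7.33 and 266 (-1.39).

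Well-known nuclear RNAs leaned the same way by smaller amounts. Of 18 long noncoding RNAs listed for nuclear retention 12 were members. Of these, 5 (41.7%) were higher in the nucleus and none in the cytoplasm, against 11.0% and 6.04% of all members. Their median was 0.64 against -0.02 over all members. Malat1, which sits in nuclear speckles, was at 22.7 in the nucleus and at 9.83 in the cytoplasm (4.52). Kcnq1ot1, the antisense RNA that silences an imprinted cluster, had 2.08 and 1.10 (2.73), and the imprinted Meg3 had 4.50 and 19.4 (1.48). Pvt1 had 7.64 and 109 (-0.07). The counting is not stated to use strand, so antisense RNAs and their partners cannot be told apart. Without the 4 members that held a B1 or B2 stretch, 1 of 8 was higher in the nucleus and the median was 0.26. Host genes of small nucleolar RNAs had 4 of 13 members (30.8%) higher in the nucleus and none in the cytoplasm. Among them were Snhg11 at 11.3 and 1.44 (4.94) and Snhg3 at 8.70 and 20.9 (2.30).

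Among protein-coding genes, the largest differences belonged to mRNAs with a B2 stretch in the 3′ UTR. The 12 genes named on the nuclear side were Gm5531, Loxl2, Slfn5, Xaf1, Bfsp1, Churc1, Cxcr2, Sap18, Nanog, Irak1, Pbld1 and Ppp1r16b, and 11 of them held a B2 stretch, 8 in sense orientation. Bfsp1, a filament protein of the lens, was the one that did not. Its nuclear value was 33.4, and it was listed at 0 in the cytoplasm. None of the 12 genes named on the cytoplasmic side held one. Only 324 of all 13561 protein-coding members with a transcript did, so the cytoplasmic count says little.

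Loxl2, an enzyme that crosslinks collagen, had a deposited value of 494 in the nucleus against 37.2 in the cytoplasm. Its relative log2 difference was 7.35, and its place went from 8170 in the cytoplasm to 168 in the nucleus. Churc1, a small zinc-binding protein, had 1310 and 139 (6.95), which made it the gene at nuclear place 50 and cytoplasmic place 4987. Nanog, the homeodomain factor of pluripotent cells, had 149 and 15.3 (6.73). In the nuclear ranking these 3 mRNAs stood far above their cytoplasmic place. Cxcr2, a chemokine receptor best known from neutrophils, had 461 and 49.1 (6.88). Slfn5, a Schlafen gene induced by interferon, had 168 and 11.1 (7.26) and gained 10171 places in the nuclear ranking. Xaf1, which binds the apoptosis inhibitor XIAP, had 224 and 18.6 (7.09). In the cytoplasm these 3 mRNAs were all below the column's median. Irak1, a kinase of interleukin-1 and Toll-like receptor signalling, had 183 and 22.3 (6.58). Sap18, a subunit of the Sin3 repressor and of an exon junction complex, had 335 and 37.9 (6.77). The naming rule required a nuclear value above that column's median over members of 4.53. In the cytoplasm 7 of these 8 lay below the median of 52.0 and Churc1 lay above it. Choosing the largest differences favours low cytoplasmic values and large gains in rank.

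**Figure D2:**
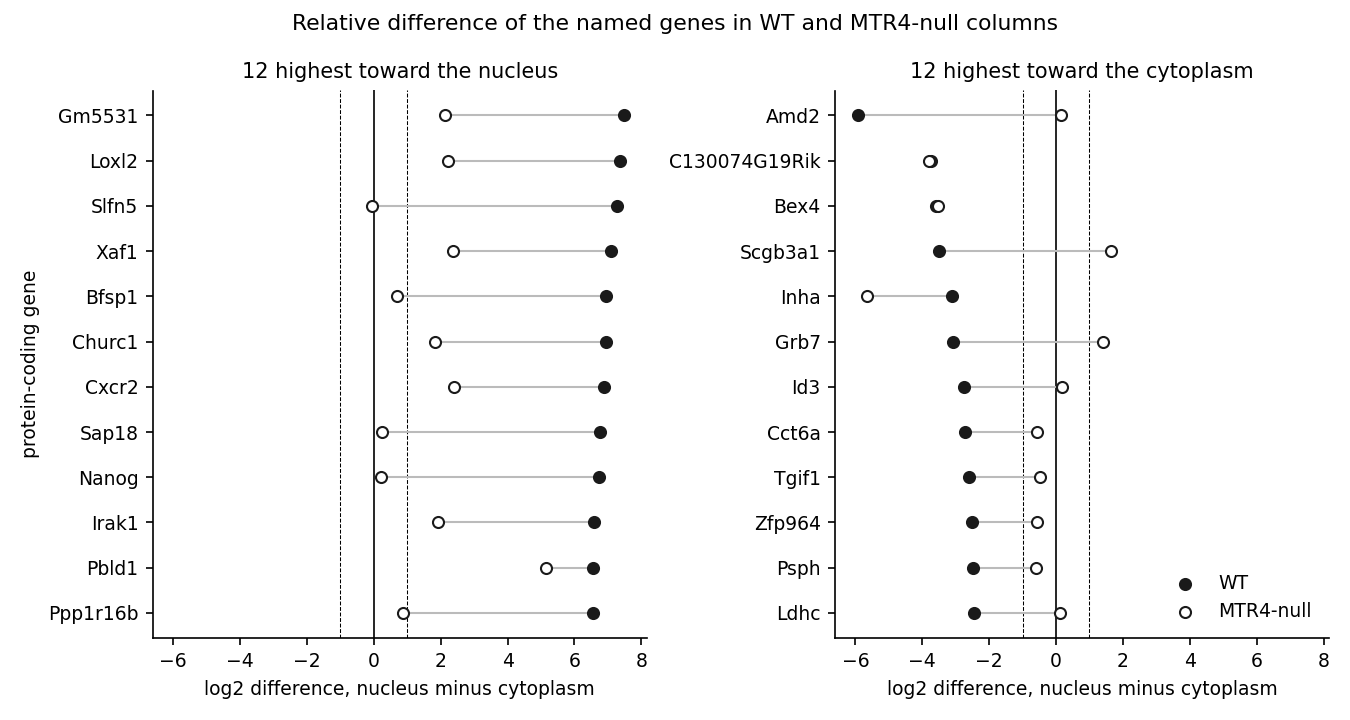
Relative log2 difference, nucleus minus cytoplasm, of the 12 protein-coding genes named on each side, with WT as filled points and MTR4-null as open points, and dashed lines at 2-fold. The WT points of the left panel lie between 6.54 and 7.49, where Bfsp1 is plotted although it is listed at 0 in the cytoplasm, and 7 of the 12 null points lie beyond 2-fold on the same side.

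Over all members the pattern held in a share of the genes with these stretches. A transcript was found for 14604 members (98.5%), of which 10.9% were higher in the nucleus and 6.07% in the cytoplasm. Of the 228 genes with B2 in sense orientation, 134 (58.8%) were higher in the nucleus and 4 (1.75%) in the cytoplasm, with a median of 1.73. Of the 138 with B2 in antisense orientation, 68 (49.3%) were higher in the nucleus, with a median of 0.90. Of the 698 with B1 and no B2, 165 (23.6%) were higher in the nucleus, with a median of 0.27. Of the 13543 with neither, 1222 (9.02%) were higher in the nucleus and 848 (6.26%) in the cytoplasm.

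Transcripts with more of B2 had larger nuclear shares. The share was 48.6% of 72 genes with 1 of the sense stretches, 56.2% of 105 genes with 2 or 3 and 78.4% of 51 genes with 4 or more. For each of the 6 sense stretches, the genes holding it, with or without other stretches, gave between 60.0% and 72.1%. These 6 sets overlap. Simple repeats of the same length without B1 or B2 gave 9.54% (CA repeats, 325 genes) and 8.33% (TG repeats, 336 genes). Among long noncoding RNAs, 26 of 34 with B2 (76.5%) were higher in the nucleus, as were 24 of 38 with B1 and no B2 (63.2%) and 96 of 648 with neither (14.8%).

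**Figure D3:**
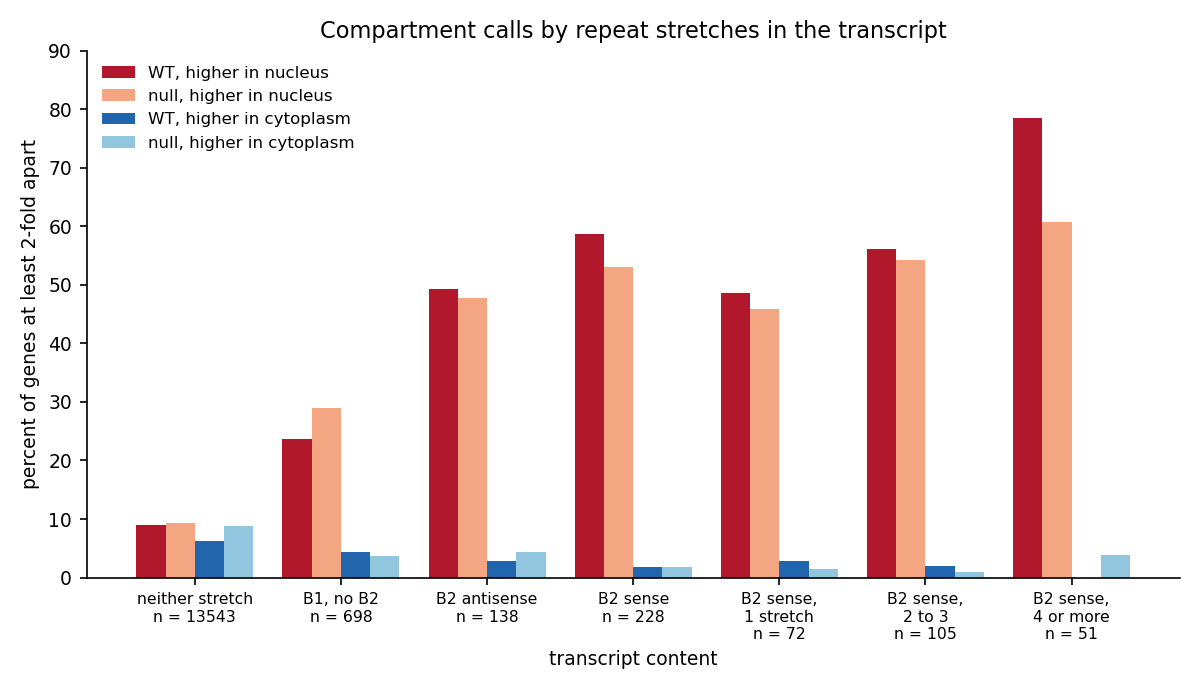
Percent of genes at least 2-fold higher in the nucleus (red) or the cytoplasm (blue) in WT (dark) and MTR4-null (light) columns, by the stretches their transcripts hold, with the number of genes under each group. The WT nuclear share goes from 9.02% with neither stretch to 78.4% with 4 or more sense stretches of B2.

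Genes with a B2 stretch made up a larger part of the genes far toward the nucleus than of all members. B2 in either orientation was in 2.49% of all members with a transcript, in 12.7% of those at least 2-fold higher in the nucleus, in 27.2% at 4-fold, in 37.8% at 16-fold and in 35.4% at 32-fold. It was in 0.903% of those at least 2-fold higher in the cytoplasm and in none of the 98 at 4-fold. The genes with B2 were not all displaced. Of 363, 85 lay between 0 and 2-fold toward the cytoplasm, 69 between 0 and 2-fold toward the nucleus, and 125 at 8-fold or more toward the nucleus. The share also differed with the level, in opposite ways for the 2 columns, each of which is part of the difference. Of 59 genes with B2 and a cytoplasmic value of up to 5, 79.7% were higher in the nucleus, against 9.09% of the 22 with a value over 1000. With neither stretch these shares were 19% of 2363 and 0.729% of 1234. By the nuclear value, 83.9% of the 62 genes with B2 over 100 were higher in the nucleus, against 11.8% of 906 with neither. At up to 0.5, none of the 17 with B2 and 0.197% of 2536 with neither were. Genes that low in the nucleus were members through the cytoplasm, which left almost no room for a nuclear call. The median nuclear value of genes with sense B2 was 20.1 against 4.57 over all members with a transcript, whereas their cytoplasmic medians were 48.5 and 52.7. In protein-coding genes the sense stretch lay in the 3′ UTR in 208 of 209 transcripts. The nuclear share was 57.9% where it began within 150 bases of the transcript's 3′ end and 47.6% where it began over 1500 bases from it.

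Some groups of mRNAs that seldom held these repeats had medians on the nuclear side. Detained introns are introns that stay unspliced in the nucleus. Of 36 mRNAs listed for them, 13 (36.1%) were higher in the nucleus and none in the cytoplasm, with a median of 0.69. Over all members the shares were 11.0% and 6.04%, and the median was -0.02. The splicing factor gene Luc7l2 was at 349 in the nucleus and at 78.0 in the cytoplasm (5.86), and Ogt, which attaches O-GlcNAc sugars to proteins, had 38.7 and 98.1 (2.37). Clk1, a kinase of splicing factors with well-studied detained introns, had 101 and 1299 (0.07). Without the 1 member that held a stretch, 12 of 35 were higher in the nucleus and the median was 0.65. The table gives 1 value per gene, so spliced and unspliced forms cannot be told apart.

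Spliceosome and hnRNP genes had 7 of 50 members higher in the nucleus and 1 in the cytoplasm, with a median of 0.36 that did not move (0.36) without the 4 members holding a stretch. Hnrnpd had 12.1 and 38 (2.01), Hnrnpu 79.0 and 372 (1.51) and Srsf1 9.18 and 44.9 (1.39). Chromatin modifier genes had 7 of 43 (16.3%) higher in the nucleus and 1 (2.33%) in the cytoplasm, with a median of 0.46. Suv420h1, which methylates histone H4, had 30.5 and 22.4 (4.0). Ehmt2, a histone H3 methyltransferase, had 0.539 and 22.3 (-1.24). Genes for storage and decay of oocyte mRNA had 5 of 35 (14.3%) higher in the nucleus and 1 (2.86%) in the cytoplasm, with a median of 0.43. Lsm14b had 83.3 and 448 (1.32) and Ybx1, a protein that coats stored mRNA, had 67.0 and 378 (1.25), whereas Patl2 had 22.2 and 814 (-1.43). These 4 medians stayed above that of all members on 6 scales, including division by column totals and quantile normalization. The nuclear shares of the spliceosome, chromatin and storage lists were near the 11.0% of all members.

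mRNAs of oocyte-specific proteins and of basic metabolism lay somewhat toward the cytoplasm, as did abundant mRNAs in general. Nearly every gene of the lists below lay within 2-fold, except in the glycolysis, lipid and redox list, where 34 of 42 did. The median of the 1322 members above a mean log2 level of 8 was -0.21, and that of the 1234 genes with neither stretch and a cytoplasmic value over 1000 was -0.27. The subcortical maternal complex and oocyte Nlrp genes, which the early embryo needs, had 15 members, none of them 2-fold apart, and a median of -0.54. Nlrp14 was at 654 in the nucleus and at 15949.6 in the cytoplasm (-0.85), and Ooep had 1299 and 21177 (-0.27). The zona pellucida, egg surface and secreted factor genes had 13 members, none 2-fold apart, and a median of -0.28. Zp1 had 639 and 15155 (-0.81), Cd9, needed for sperm fusion, had 139 and 3080.3 (-0.72), and Kit had 58.3 and 526 (0.58). Proteasome subunit genes had a median of -0.35 over 39 members, with 1 on each side. Nuclear-encoded respiratory chain genes had a median of -0.26 over 90 members, with none higher in the nucleus and 1 in the cytoplasm, Uqcrc1 at 6.82 and 259 (-1.45). For cytoplasmic ribosomal protein genes the median was -0.24 over 82 members, with 1 on the nuclear side and 2 on the cytoplasmic side. The former was Rpl34 at 278 and 493 (2.92), and many ribosomal protein genes share reads with pseudogene copies. Glycolysis, lipid and redox genes had a median of -0.38 over 42 members. Of these, 2 (4.76%) were higher in the nucleus and 6 (14.3%) in the cytoplasm, against 11.0% and 6.04% of all members. The list medians of this paragraph stayed below that of all members on the same 6 scales.

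**Figure D4:**
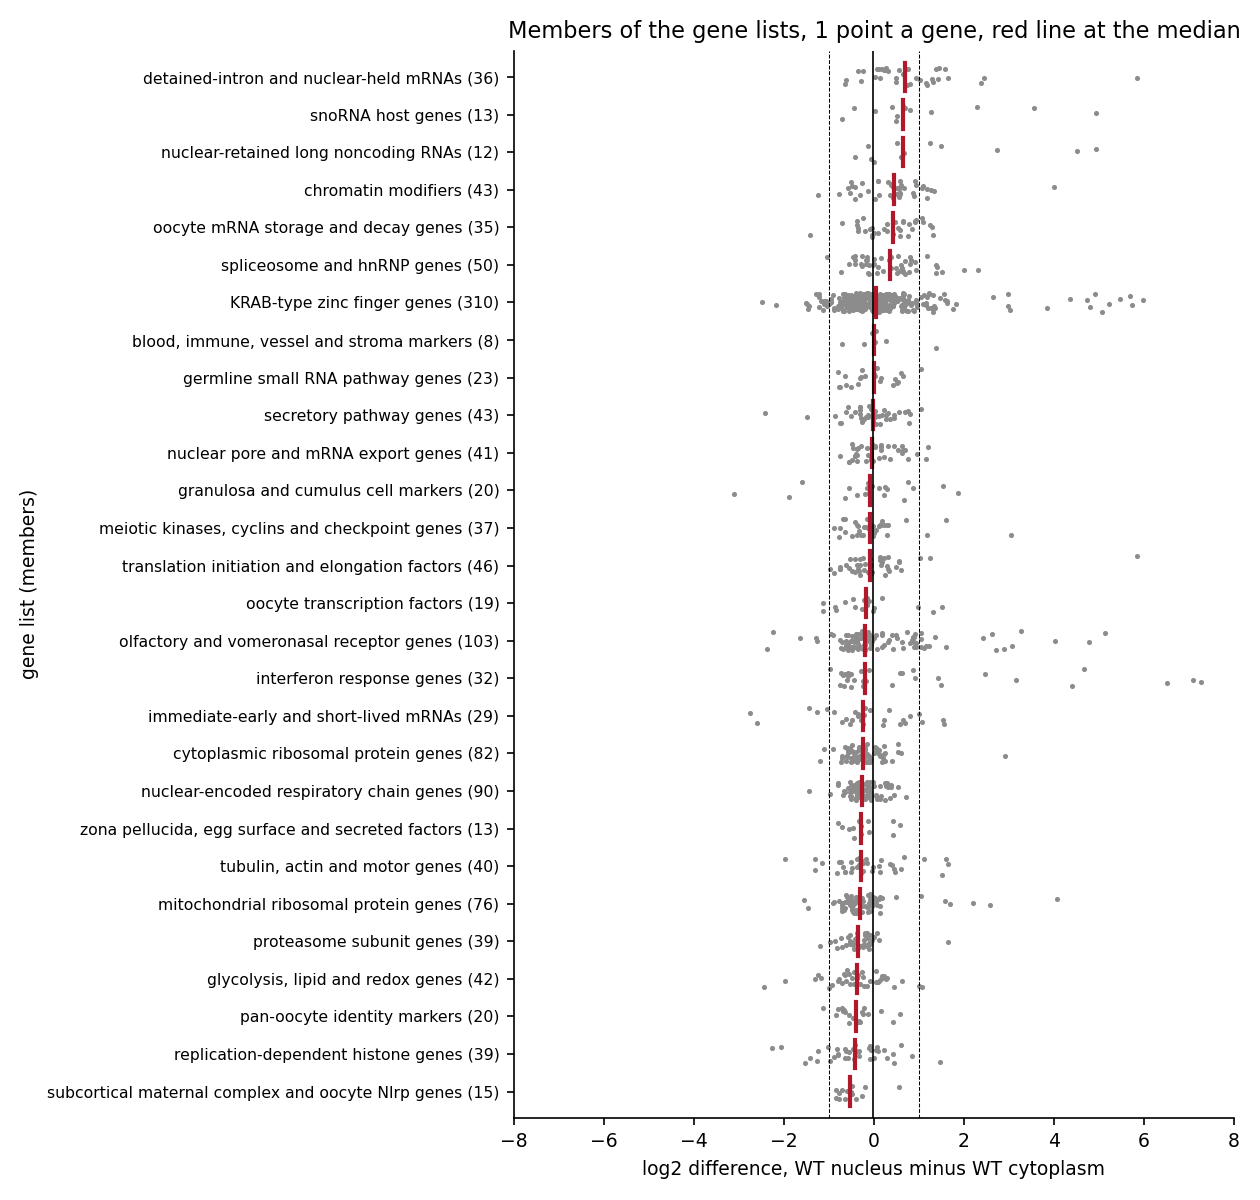
Relative log2 difference of every member of 28 gene lists (number of members in brackets), with the list median as a red line, the median of all members as a solid line and dashed lines at 2-fold. Medians run from -0.54 for the subcortical maternal complex list to 0.69 for the detained-intron list, and most points of every list lie within 2-fold.

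Several lists mixed the genes just described with genes that held a stretch. Mitochondrial ribosomal protein genes had a median of -0.31, and 6 of 76 (7.89%) were higher in the nucleus, against 11.0% of all members. Mrpl43 had 246 and 195 (4.06) and Mrpl27 116 and 261 (2.57), and both hold a sense B2. Without the 12 members with a B1 or B2 stretch, 2 of 64 were higher in the nucleus and the median was -0.33. Interferon response genes had 9 of 32 (28.1%) higher in the nucleus, against 11.0% of all members. None were higher in the cytoplasm, and the list median was -0.21. Slfn5, Xaf1, Tapbpl and Irf9 were the 4 furthest from 0, and each holds a sense B2. Tapbpl, a chaperone of antigen presentation, had 55.5 and 4.59 (6.51), and Irf9, a factor of the interferon pathway, had 8.02 and 0.711 (4.67). Without the 7 members with a stretch, 4 of 25 were higher in the nucleus, against 9.02% of all genes with neither stretch. The zinc finger list was named for the KRAB type, a large family of repressors of transposable elements. Whether each of its genes has a KRAB domain was not tested. Of its 310 members, 37 (11.9%) were higher in the nucleus and 16 (5.16%) in the cytoplasm, close to the 11.0% and 6.04% of all members. Without the 45 with a stretch, 24 of 265 and 14 were. Over all genes with neither stretch, the shares were 9.02% and 6.26%. Zfp935 (168 and 32.1, 5.99) and Zfp607 (486 and 124, 5.68) were among the highest and held no stretch in the transcript searched.

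Fewer genes were far toward the cytoplasm, 99 of them by 4-fold or more. Amd2, a gene for an enzyme of polyamine synthesis that has a near-identical copy and is therefore uncertain, was at 0.106 in the nucleus and at 308 in the cytoplasm (-5.93). C130074G19Rik had 0.904 and 208 (-3.73), and Bex4 had 0.635 and 144 (-3.59). Id3, a short-lived inhibitor of transcription factors, had 2.35 and 237 (-2.76). Cct6a, a subunit of the chaperonin that folds actin and tubulin, had 0.948 and 104 (-2.71). Psph, the last enzyme of serine synthesis, had 0.924 and 86.6 (-2.48), and Ldhc, the germ-cell lactate dehydrogenase, had 5.57 and 427 (-2.45). Atp6v0c, a subunit of the proton pump of lysosomes, lost most places among abundant mRNAs, from place 917 in the cytoplasm to 3125 in the nucleus, with 26.0 and 1434 (-2.02). Inha, the inhibin subunit made by granulosa cells, had 1.92 and 253 (-3.12), and Amhr2 and Hsd17b1, also of that list, had 0 and 9.94 and 0.278 and 18.9. The part of granulosa RNA in the cytoplasmic values was not tested. Replication-dependent histone genes had 7 of 39 members (17.9%) higher in the cytoplasm and 1 (2.56%) in the nucleus. Over all members these shares were 6.04% and 11.0%. Hist1h4i was at 0.700 and 59.5 (-2.27). Replication-dependent histone mRNAs mostly lack a poly(A) tail and share reads with near-identical copies.

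Longer transcripts lay further toward the nucleus at low, middle and high expression. Among 12553 protein-coding genes with neither stretch, those higher in the nucleus had a median transcript length of 2921 bases and those higher in the cytoplasm 1938, against 2737 over all. Spearman's rho of length and difference was 0.28 across these genes, which share both columns. In 5 equal groups by length, the median difference went from -0.29 in the shortest (median 1107 bases) over -0.24, -0.09 and 0.07 to 0.26 in the longest (6091 bases). The share higher in the cytoplasm went from 10.4% to 1.83%, while the share higher in the nucleus moved less, from 6.37% to 9.32%. At low expression the nuclear share went the other way, from 11.1% in the shortest to 7.9% in the longest. Divided by column totals, the outer medians were -0.45 and 0.03. Both the coding part and the 3′ UTR were longer on the nuclear side (1398 and 1050 bases of coding sequence, 913 and 500 bases of 3′ UTR). Median GC content was 50.2% on the nuclear side and 52.3% on the cytoplasmic side.

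**Figure D5:**
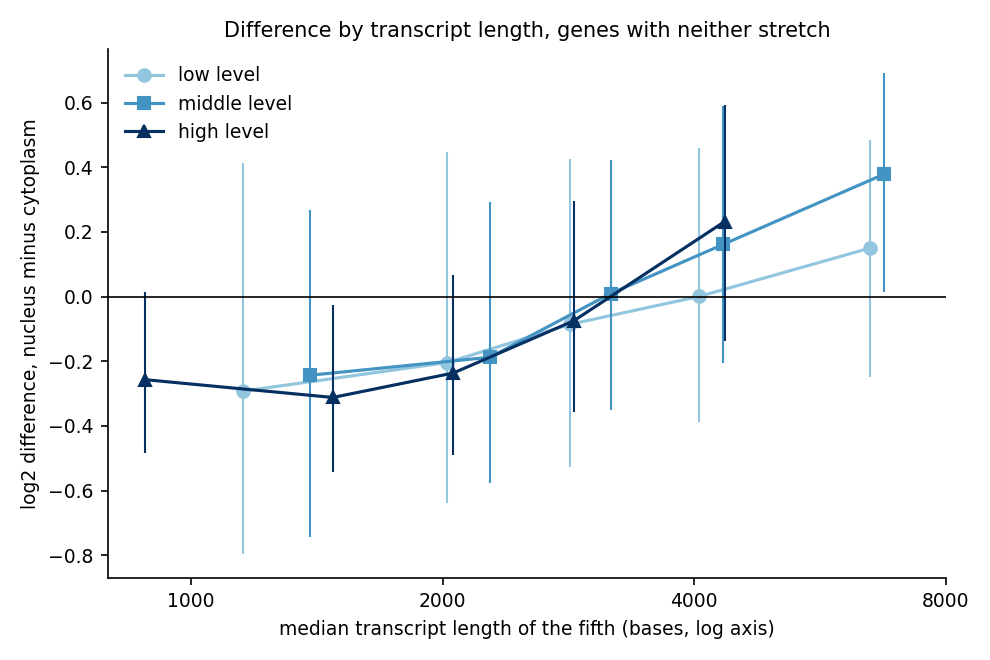
Median log2 difference, nucleus minus cytoplasm, of 5 equal groups by transcript length (x axis, log scale) among protein-coding genes with neither stretch, at low, middle and high mean expression, with vertical lines from the lower to the upper quartile. At the high level the medians go from -0.26 at 882 bases to 0.23 at 4350 bases.

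Sequence motifs in the 3′ UTRs of these genes, searched on the mRNA strand with overlaps counted, also differed in density. TTTTAT, the core of the cytoplasmic polyadenylation element, occurred 1.21 times per kilobase in genes higher in the nucleus, 0.74 in genes higher in the cytoplasm and 1.01 over all, and stood in 56.1%, 32.5% and 49.1% of the UTRs. TGTANATA, the site of Pumilio proteins, occurred 0.27, 0.18 and 0.25 times per kilobase and stood in 24.8%, 12.3% and 21.7%. ATTTA, the core of AU-rich elements, occurred 2.09, 1.62 and 1.85 times per kilobase. AATAAA, the polyadenylation signal, went the other way at 1.23, 1.38 and 1.20, as did AGCCC, a motif known from nuclear retention of a long noncoding RNA, at 1.08, 1.29 and 1.19. The share of UTRs with these motifs did not go that way, with AATAAA in 76.9%, 74.3% and 76.3% and AGCCC in 54.0%, 49.4% and 55.5%. CCTCCC occurred 0.66, 0.53 and 0.60 times per kilobase. The median UTR lengths of the 3 sets were 915.5, 500 and 785 bases. The part of length in these densities was not tested, and a match to letters is not a bound site.

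In the MTR4-null columns, which share no library with the WT columns, the nuclear difference recurred in part of the genes. Skiv2l2, the gene of MTR4, had 13.3 in the WT nucleus, 187 in the WT cytoplasm, and 3.54 and 4.36 in the null columns. In null, 11.5% of the members were higher in the nucleus by 2-fold or more and 8.37% in the cytoplasm. Of the 1631 members higher in the WT nucleus, 656 (40.2%) were higher in the null nucleus and 118 (7.23%) in the null cytoplasm. Of the 895 higher in the WT cytoplasm, 134 (15.0%) were higher in the null cytoplasm and 83 in the null nucleus. Of the WT nuclear genes with a B1 or B2 stretch, 283 of 366 (77.3%) were again higher in the null nucleus, against 352 of 1222 (28.8%) with neither. These sets differed in the size of the WT difference. At a WT log2 difference of 1 to 2, 25 of 37 genes with B2 and 152 of 858 with neither were higher in the null nucleus, and at 2 to 3 the counts were 28 of 39 and 71 of 160. At 3 to 4 the counts were 22 of 26 and 32 of 52. At 4 to 5 they were 28 of 32 and 28 of 33, and at 5 to 6 they were 35 of 39 and 26 of 30. At 6 and over they were 22 of 28 and 43 of 89, where the genes with neither had a median cytoplasmic value of 0. The shares were thus close only between 4 and 6. Across the 363 genes with B2, Spearman's rho of the WT and null differences was 0.61, and across the 13543 with neither it was 0.02. Among the genes higher in the WT nucleus alone the order was the reverse, at 0.11 for 201 with B2 and 0.36 for 1222 with neither. Genotype and possibly age differ between these columns, so a difference between them cannot be told apart from either.

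The null difference was smaller for the 12 genes named on the nuclear side, which were chosen for extreme WT values. Loxl2 had 3434 in the null nucleus and 2278 in the null cytoplasm (2.23), Churc1 10826 and 9547 (1.82), and Irak1 2080 and 1723 (1.91). Slfn5, with 1154 and 3724 (-0.05), and Nanog, with 543 and 1471 (0.21), were within 2-fold. Pbld1 kept most of its WT difference, with 16155 and 1433 (5.14). Among the 125 genes with B2 that the WT nucleus held at 8-fold or more, the null difference had a median of 1.82 and quartiles of 1.42 and 2.25, and 107 of them passed 2-fold on the nuclear side. The 204 genes with neither stretch at that WT difference had a null median of 2.02, and 129 of them passed 2-fold. Malat1 had 364 and 136 in null (3.05), and Luc7l2 had 4138 and 3696 (1.81). Of the lists with WT medians on the nuclear side, 4 had null medians of 0.15 (detained introns), -0.07 (spliceosome), 0.02 (chromatin modifiers) and -0.23 (mRNA storage and decay). Nuclear-retained long noncoding RNAs had a null median of 0.95 and host genes of small nucleolar RNAs one of 0.57, against 0.64 for each in WT. Bex4 and C130074G19Rik were again toward the cytoplasm in null, with 0.592 and 40.2 (-3.54) and 0.649 and 50.6 (-3.79), whereas Id3 (108 and 300.3, 0.17) and Ldhc (75.8 and 219, 0.11) were not. Transcript length did not recur either, with a null median of 0.00 in the shortest and -0.05 in the longest of the 5 length groups with neither stretch. By coding length the null medians rose as in WT, from -0.12 in the lowest to 0.07 in the highest of 5 groups. By 3′ UTR length (0.08 to -0.18) and GC content (-0.41 to 0.26) they went against the WT direction.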

How the data were processed

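The deposited table holds 1 value per gene for each of 4 columns. The values are FPKM by the table's name, but they are treated here as a score, because the columns the authors deposited are not on 1 common scale. Per the submitters' processing notes, TopHat2 2.1.1, Cufflinks 2.2.1 and mm9 were used. Roles, settings and averaging are not given in the sources used here, and read depth is unknown. The members, the gene lists and the naming rules were chosen with earlier results of these data known. Named were the 12 highest and 12 lowest protein-coding genes and the 6 highest and 6 lowest long noncoding genes above the median of the higher column. The 10 most abundant mRNAs and 4 other RNAs of each column, the 5 highest genes listed under 0.001 in the other column, the 6 largest gains in rank, and for each of 29 lists 4 members furthest from 0 and 2 nearest to it were named too. Repeat stretches were 24-base words with at least 12 distinct 3-base words, linked when found within 150 bases of each other, in 1 GENCODE vM21 transcript a gene, and between 42 and 176 transcripts held each. Element names were assigned from textbook sequence. The scaling was tested on simulated data. Python 3.11.15, numpy 2.4.6, pandas 2.3.3 and matplotlib 3.10.9 were used. Some items that the naming rule selects are not reported here.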

Additional observations from a re-analysis of the deposited data

How the results depend on the processing

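No paired analysis was possible because the table has 1 column per genotype and compartment, and no replicate could be left out. Against 1631 genes higher in the nucleus, there were 301 with values as deposited, 1005 after division by column totals, 954 with 5 added in place of 1, and 623 at 4-fold. Against 895 higher in the cytoplasm, there were 13841 as deposited, 580 after division by totals without small RNA genes, 1383 after quantile normalization, 1784 with 0.1 added, 289 with 5 added, 1377 with nothing added over genes above 0 in both, 404 over genes of at least 1 in both, and 99 at 4-fold. The cause of these shifts was not tested. The share of genes with B2 that were higher in the nucleus (55.4%) stayed between 49.9% and 57.1% under alternatives chosen after seeing the data, 1 of them a search of any GENCODE transcript of the gene. With neither stretch it was 9.02%, and it was 5.07% after division by totals and 4.90% with 5 added. The Spearman correlation of the columns ran from 0.874 to 0.924 over the filters tried. Of 29 list medians taken against that of all members on 6 scales, 22 kept their sign. The 7 that did not were nuclear pore and export, secretory pathway, small RNA pathway, immediate-early, olfactory receptor, granulosa and blood or stroma genes. Precision is limited by the single column per compartment.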

Other observations

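Genes of the X chromosome had a median further toward the nucleus in WT than those of any autosome. The median difference of 465 protein-coding genes was 0.19, with 12.7% at least 2-fold higher in the nucleus, against medians of -0.11 to 0.09 and shares of 7.55% to 11.97% on the 19 autosomes. The X share was thus close to the highest autosomal ones. Without genes holding a B1 or B2 stretch the X median was 0.16 and the autosomal range -0.12 to 0.06. In the null columns the X median was -0.30, below the autosomal range of -0.18 to 0.10.

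Olfactory and vomeronasal receptor genes, which have no known part in the oocyte, had 103 members of 1437 in the table. Of these, 17 (16.5%) were higher in the nucleus and 5 (4.85%) in the cytoplasm, against 11.0% and 6.04% of all members, beside a list median of -0.19. In WT, Olfr856-ps1 had 12.8 (nucleus) and 1.31 (cytoplasm), a difference of 5.15, against 90.8 and 6.39 in null (5.13). Vmn1r58 had 9.25 and 1.0 (4.78) and 43.8 and 6.06 in null (4.15), and Olfr613 had 4.81 and 0.559 (4.02) and 33.1 and 2.94 (4.48). These 3 genes differed by about as much in null as in WT.

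Genes for oocyte transcription factors went both ways. Pou5f1 had 72.6 and 340 (1.52) and Obox3 2.21 and 9.86 (1.31), whereas Nobox had 216 and 6401 (-1.13) and Sohlh2 1.97 and 62.6 (-1.13). The short-lived mRNA list had 3 of 29 members (10.3%) higher in the nucleus and 5 (17.2%) in the cytoplasm, with a median of -0.24. Gadd45a (2.1 and 7.18, 1.56) and Btg1 (6.98 and 30.4, 1.53) of that list were higher in the nucleus. Atf3 of the same list had 0.0654 and 24.1 (-2.61).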
